A study of Drosophila melanogaster with 30 samples.

Results

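The 8 homeotic genes of Drosophila melanogaster, lab, pb, Dfd, Scr, Antp, Ubx, abd-A and Abd-B, were taken by name from a table of 17868 genes counted in 9 wing disc RNA libraries. Every chromatin loop that the study's authors labelled with one of these genes was added. Among 209 wing disc loops 3 carried such a label, 1 with Scr and 2 with Antp. Among 186 embryo loops 0 did, although 3 unlabelled embryo loops lay at the same places.

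The study altered GAGA-associated factor (GAF), the product of Trithorax-like (Trl), which binds GAGAG motifs in promoters and in Polycomb response elements of the homeotic complexes. The RNA came from wing imaginal discs of wandering larvae in 3 Halo-tagged lines: delta-POZ, named for the domain through which GAF molecules join one another, delta-Q, named for the glutamine-rich domain, and Halo-Trl, which carries the tag with neither deletion. There were 3 libraries of 30 discs per line, described as biological triplicates, and contact maps were made from 2 libraries of 90 discs per line. A further 8 contact maps came from embryos of 2 to 2.5 h: 4 of GAF(deGradFP), in which a GFP-binding nanobody directs GFP-tagged GAF to degradation, and 4 of the sfGFP-GAF(N) control, tagged but not degraded. How many independent fly lines stand behind each genotype is not given in the sources used here, so a deletion and the background of its line cannot be told apart. The CUT&Tag libraries of the study were not analysed here.

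Homeotic genes encode homeodomain transcription factors that give each body segment its identity. They lie in 2 groups on chromosome 3R. The Antennapedia complex holds lab, pb, Dfd, Scr and Antp, which act from the head to the thorax, and the bithorax complex holds Ubx, abd-A and Abd-B, which act from the posterior thorax to the end of the abdomen. Trithorax group proteins, among which Trl is counted, keep them active where they belong, and Polycomb group proteins keep them silent elsewhere. The wing disc forms the wing and the dorsal second thoracic segment. Ubx is best known for turning the corresponding dorsal disc of the third segment into a haltere.

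RNA libraries held 57673928 to 85575887 counted reads. Levels are given as CPM, reads scaled to the effective library size. They are compared for 1 gene between libraries and not between genes, since they were not divided by gene length. All 10 wing disc markers were read in every genotype, and their summed level was 2014 to 2552 CPM in delta-POZ, 2279 to 2806 CPM in delta-Q and 2438 to 2931 CPM in Halo-Trl libraries. Trl itself averaged 69.0 ± 8.75 CPM in delta-POZ, 60.3 ± 3.68 CPM in delta-Q and 47.6 ± 5.14 CPM in Halo-Trl libraries (SD, n = 3 each). Gene counts do not show the deleted part and so do not check the labels. In bulk RNA, fewer cells of a type and less RNA per cell cannot be told apart.

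Of these libraries, delta-POZ 2 and Halo-Trl 1 stood apart. In delta-POZ 2, 454 of the 17868 genes were at least 5-fold above the next library and at or above 1 CPM, and in Halo-Trl 1 this held for 262 genes, against 0 to 7 genes in each of the other libraries. Results that rest on these libraries are given with and without them. Markers of other tissues are given beside the results they accompany.

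No homeotic gene passed the test in any of the 3 RNA comparisons. Of the 8 genes, 5 passed the filter on low counts per library and were tested (lab, Scr, Antp, Ubx and abd-A), while pb, Dfd and Abd-B did not. Dfd had 136 reads in all, but 98.5% of them were in 1 library. Under edgeR's quasi-likelihood test with an adjusted p under 0.05, 0 of these 5 differed between delta-POZ and Halo-Trl, where 10.1% of all 10359 genes tested did. The same count was 0 of 5 between delta-Q and Halo-Trl, where 0.656% of all genes passed, and 0 of 5 between delta-Q and delta-POZ, where 4.6% passed. At an unadjusted p under 0.05 the counts were 1, 0 and 1 of 5 in these 3 comparisons, Scr in both cases, beside 26.0%, 7.82% and 20.3% of all genes. Every library of 1 genotype lay on the same side of every library of the other for 0, 1 and 0 of the 5, beside 33.0%, 13.1% and 24.2% of all genes. With 5 genes tested, a count of 0 does not set them apart from these backgrounds. In each comparison DESeq2 called 0 of the 3 genes to which it gave an adjusted p (lab, Antp and Ubx), and gave none to Scr and abd-A.

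**Figure D1:**
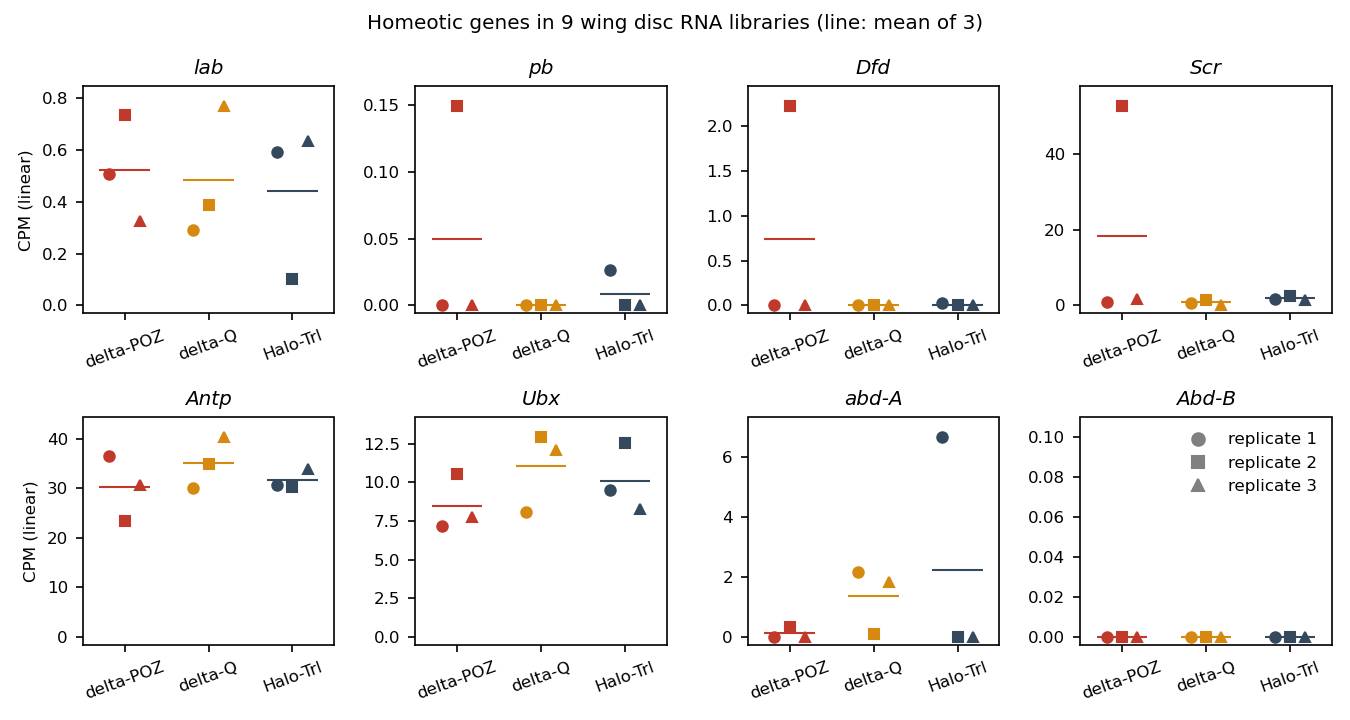
CPM (linear axes, 1 panel per gene with its own scale) of the 8 homeotic genes in the 9 wing disc RNA libraries, delta-POZ, delta-Q and Halo-Trl from left to right. Each point is a library, its shape gives the replicate number and the line is the mean of 3. Antp and Ubx had overlapping groups, and Scr, Dfd and pb had 1 high point in delta-POZ 2. abd-A had its highest point in Halo-Trl 1 (6.65 CPM), and Abd-B stayed at 0 in every library.

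Antp and Ubx, the homeotic genes of the thorax that follow Scr, were read at steady levels in all 3 genotypes. Antp (FBgn0260642), which gives the second thoracic segment its identity, had 36.6, 23.4 and 30.8 CPM in the 3 delta-POZ libraries. It had 30.0, 34.9 and 40.3 CPM in delta-Q and 30.6, 30.3 and 34.0 CPM in Halo-Trl libraries. The groups overlapped, the lowest value being that of delta-POZ 2 and the highest that of delta-Q 3. By mean level the order was delta-Q (35.1 ± 5.15 CPM), Halo-Trl (31.6 ± 2.04 CPM) and delta-POZ (30.3 ± 6.60 CPM; SD, n = 3 each), and no neighbours in that order differed beyond their spread.

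The edgeR log2 fold change of Antp was -0.06 for delta-POZ over Halo-Trl, with a 95% interval of -0.45 to 0.32 (adjusted p = 0.859). For delta-Q over Halo-Trl it was 0.15, with an interval of -0.23 to 0.53 (adjusted p = 0.94). For delta-Q over delta-POZ it was 0.21, from -0.17 to 0.60 (adjusted p = 0.532). Changes beyond these bounds lie outside the intervals, and those within them cannot be told from no change with these libraries. In RefSeq, CG46458 and lncRNA:CR43252 overlap Antp. The first had no read in any library and the second had 1676 reads over the 9 libraries beside 19719 for Antp. The strand setting of the counting is not given in the sources used here, so reads of overlapping genes cannot be told apart by strand.

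Ubx (FBgn0003944) had 7.19, 10.6 and 7.75 CPM in delta-POZ libraries, 8.09, 12.9 and 12.1 CPM in delta-Q libraries, and 9.52, 12.6 and 8.27 CPM in Halo-Trl libraries. Each genotype had a library below 10 CPM and a library above it, and the groups overlapped. The means were 8.50 ± 1.81 CPM in delta-POZ, 11.04 ± 2.59 CPM in delta-Q and 10.1 ± 2.21 CPM in Halo-Trl (SD, n = 3 each). The edgeR log2 fold change was -0.25 for delta-POZ over Halo-Trl (95% interval -0.80 to 0.30, adjusted p = 0.578). It was 0.13 for delta-Q over Halo-Trl (-0.42 to 0.68, adjusted p = 0.98) and 0.38 for delta-Q over delta-POZ (-0.17 to 0.93, adjusted p = 0.429). Ubx was thus measured with wider intervals than Antp, and no genotype differed from another beyond the spread of its libraries.

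**Figure D2:**
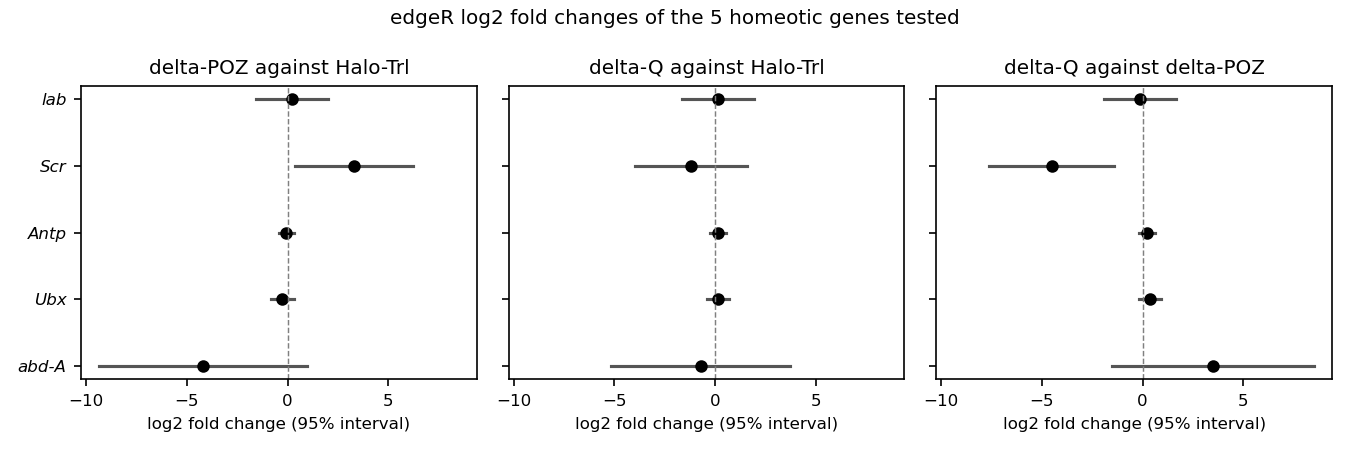
edgeR log2 fold changes (points) with 95% intervals (lines) of the 5 homeotic genes tested, for delta-POZ against Halo-Trl, delta-Q against Halo-Trl and delta-Q against delta-POZ. Intervals of Antp and Ubx stay within 1 log2 unit of 0 in all 3 panels, whereas those of Scr and abd-A span several log2 units.

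Scr, which specifies the labial and first thoracic segments, had 1 library far above the rest. It had 0.898, 52.8 and 1.69 CPM in the 3 delta-POZ libraries, 0.698, 1.46 and 0.261 CPM in delta-Q libraries, and 1.64, 2.49 and 1.48 CPM in Halo-Trl libraries. These values came from 62, 3174 and 114 reads in delta-POZ, 60, 90 and 16 in delta-Q, and 122, 192 and 82 in Halo-Trl. Library delta-POZ 2 held 81.1% of all Scr reads of the study and lay 21.2-fold above the next library, Halo-Trl 2. The other delta-POZ libraries lay 1 below and 1 within the Halo-Trl range.

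The edgeR log2 fold change of Scr (FBgn0003339) was 3.30 for delta-POZ over Halo-Trl (SE 1.30, 95% interval 0.39 to 6.21, unadjusted p = 0.0299, adjusted p = 0.143). Without delta-POZ 2 it was -0.52 (adjusted p = 0.736). For delta-Q over delta-POZ it was -4.52 with all libraries (SE 1.39, unadjusted p = 0.00871, adjusted p = 0.101) and -0.71 without delta-POZ 2 (adjusted p = 0.677). The size of both values therefore rests on delta-POZ 2. For delta-Q over Halo-Trl it was -1.22 (95% interval -3.999 to 1.56, adjusted p = 0.93). All 3 delta-Q libraries lay below all 3 Halo-Trl libraries, the only homeotic gene of the 5 tested for which groups did not overlap in that comparison, where 13.1% of all genes tested had such groups. RefSeq places 5 lncRNA genes in overlap with Scr. The largest read count among them was 37 over the 9 libraries, for lncRNA:CR45901.

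Dfd (FBgn0000439), which specifies the mandibular and maxillary segments, was read almost in the same library alone. It had 0, 134 and 0 reads in delta-POZ libraries, no read in delta-Q libraries, and 2, 0 and 0 reads in Halo-Trl libraries. Library delta-POZ 2 thus held 98.5% of its reads, at 2.23 CPM. A count of 0 allows up to 3 reads, which is 0.0349 to 0.0542 CPM in these libraries. pb (FBgn0051481), which acts in the mouthparts, had 9 reads in delta-POZ 2, 2 in Halo-Trl 1 and none in the other 7 libraries. Neither gene was tested.

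Some markers of other tissues were also high in delta-POZ 2. All 4 neural and glial markers had their highest level there. Their summed level was 5.98, 296 and 5.90 CPM in delta-POZ libraries, 6.22 to 11.9 CPM in delta-Q libraries and 52.9 to 75.5 CPM in Halo-Trl libraries. Of these, elav made up most of the Halo-Trl sum (51.1 to 74.0 CPM), while brp, a synaptic protein, had 0.522, 91.4 and 1.73 CPM in delta-POZ, 0.732 to 1.23 CPM in delta-Q and 0.921 to 1.17 CPM in Halo-Trl libraries.

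Eye-antennal disc markers summed to 62.0, 94.3 and 53.8 CPM in delta-POZ libraries, 48.0 to 50.2 CPM in delta-Q and 46.5 to 50.9 CPM in Halo-Trl libraries, with 3 of 6 (ey, toy and gl) highest in delta-POZ 2. toy, an eye-field factor, had 0.391, 37.0 and 0.459 CPM in delta-POZ, at most 2.18 CPM in delta-Q and at most 1.17 CPM in Halo-Trl libraries. Leg disc markers summed to 37.5, 72.9 and 38.2 CPM in delta-POZ, 32.7 to 45.9 CPM in delta-Q and 35.4 to 39.7 CPM in Halo-Trl libraries, with 3 of 4 highest in delta-POZ 2. None of these markers was at 0 in a whole genotype. The eye-antennal markers so, eya and ato were not highest in delta-POZ 2. In the delta-POZ libraries so had 6.62, 5.92 and 4.34 CPM and eya had 54.6, 45.1 and 48.3 CPM. ato had 0.058, 0.133 and 0.207 CPM there, and the leg marker al had 13.1, 11.2 and 11.5 CPM. Scr, Dfd and pb thus peaked in the same library as the nerve markers and some, but not all, of the eye and leg markers. The part of these tissues in the result was not tested.

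**Figure D3:**
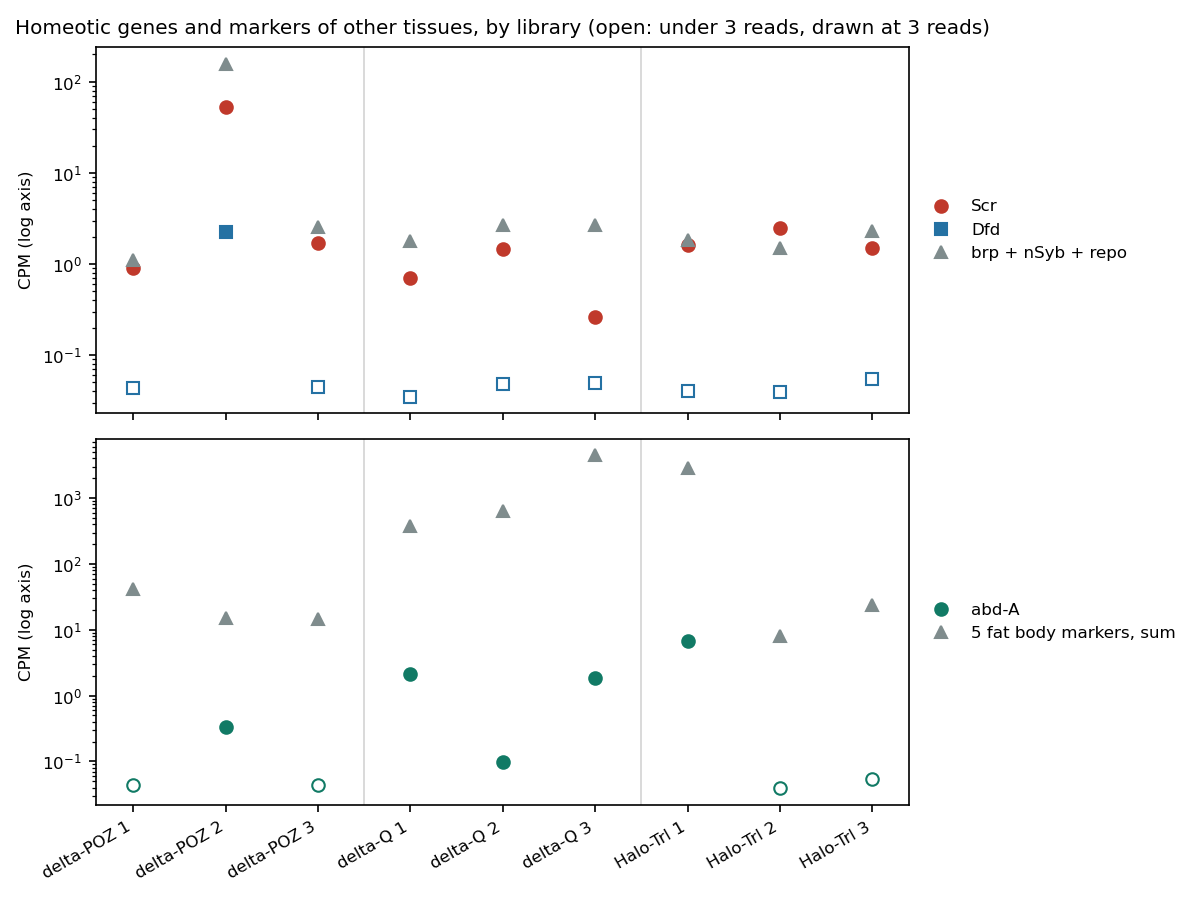
Top: CPM (log axis) of Scr, of Dfd and of the summed markers brp, nSyb and repo by library, with delta-POZ left of delta-Q and Halo-Trl. The remaining neural and glial marker, elav, is left out of that sum. It had 4.88, 137 and 3.36 CPM in delta-POZ, 4.45 to 9.28 CPM in delta-Q and 51.1 to 74.0 CPM in Halo-Trl libraries. Bottom: abd-A and the sum of 5 fat body markers. Open symbols had under 3 reads and are drawn at 3 reads; in the top panel all 3 quantities peak in delta-POZ 2, and in the bottom panel the highest abd-A level, 6.65 CPM, is in Halo-Trl 1, which has the second highest fat body sum.

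lab (FBgn0002522), which acts in the head and in the midgut, was read at low levels. It had 0.507, 0.732 and 0.326 CPM in delta-POZ, 0.291, 0.388 and 0.768 CPM in delta-Q, and 0.590, 0.104 and 0.632 CPM in Halo-Trl libraries, from 8 to 47 reads each. The groups overlapped fully. The edgeR log2 fold changes were 0.24 for delta-POZ over Halo-Trl (95% interval -1.55 to 2.03, adjusted p = 0.889), 0.13 for delta-Q over Halo-Trl (-1.66 to 1.91, adjusted p = 0.996) and -0.11 for delta-Q over delta-POZ (-1.90 to 1.67, adjusted p = 0.957). These wide intervals do not tell a rise or a fall of such a size from no change. Unlike Scr and Dfd, lab had no single high library: its highest, delta-Q 3, was 1.05-fold above the next. Halo-Trl 2 was the lowest, with 8 reads, and without it the log2 fold change for delta-POZ over Halo-Trl was -0.23.

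abd-A (FBgn0000014), which specifies anterior abdominal segments, varied widely between libraries of 1 genotype. It had 1, 20 and 1 reads in delta-POZ libraries, 185, 6 and 112 reads in delta-Q libraries, and 496, 0 and 0 reads in Halo-Trl libraries. As levels these were 0.0145, 0.333 and 0.0148 CPM in delta-POZ, 2.15, 0.0971 and 1.83 CPM in delta-Q, and 6.65, 0 and 0 CPM in Halo-Trl. Halo-Trl 1 held 60.4% of all abd-A reads, and delta-Q 1 and delta-Q 3 held most of the rest.

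The edgeR log2 fold change of abd-A was -4.20 for delta-POZ over Halo-Trl (SE 2.31, 95% interval -9.35 to 0.95, adjusted p = 0.292). It was -0.71 for delta-Q over Halo-Trl (SE 1.99, adjusted p = 0.984) and 3.50 for delta-Q over delta-POZ (SE 2.25, adjusted p = 0.42). Without delta-POZ 2 the value for delta-POZ over Halo-Trl was -7.09 (adjusted p = 0.217) and that for delta-Q over delta-POZ 6.34 (adjusted p = 0.345), each against single reads in the 2 remaining delta-POZ libraries. Without Halo-Trl 1 the sign of both values against Halo-Trl turned positive, since the remaining Halo-Trl libraries had no abd-A read; such fitted values depend on the prior count and are no measure of size. The genotype of the highest level thus rested on 1 library.

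Fat body markers, the larval serum proteins Lsp1alpha, Lsp1beta and Lsp2 with Fbp1 and Fbp2, summed to 41.9, 14.9 and 14.4 CPM in delta-POZ, 381, 636 and 4466 CPM in delta-Q, and 2822, 8.001 and 23.7 CPM in Halo-Trl libraries. All 5 were read in every genotype. The 3 libraries in which abd-A exceeded 1 CPM (delta-Q 1, delta-Q 3 and Halo-Trl 1) were among the 4 with the highest sums. The fourth, delta-Q 2, had 636 CPM of fat body markers with 0.0971 CPM of abd-A. The part of fat body in the abd-A level was not tested.

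Abd-B (FBgn0000015), which specifies posterior abdominal segments, had no read in any of the 9 libraries, which allows at most 0.0349 to 0.0542 CPM. The analia markers cad and byn were also at or near 0, with a sum of 0 CPM in delta-POZ and delta-Q libraries and 0 to 0.144 CPM in Halo-Trl libraries. Floors and intervals from reads cover counting error only. Among counts of 2 to 20, 72.8% to 80.4% were even in each library, against 49.3% to 53.0% among counts of 1000 or more, so a floor that treats reads as independent may be too low.

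The genes whose levels followed the homeotic genes most closely were found over the 9 libraries by the root mean square difference of centred log2(CPM + 0.01) values, among genes averaging at least 1 CPM and varying at least as much. For Scr these were CG34377 (1.097 log2 units), lncRNA:CR31451 (1.11) and CG16779 (1.15), each of which also peaked in delta-POZ 2. For abd-A they were CG7342 (1.11), fusl (1.17) and CG5773 (1.55), each of which peaked in Halo-Trl 1. For Antp they were CG4074 (0.14), CG10960 (0.15) and Inx2 (0.16), and for Ubx they were mtTFB2 (0.19), CG14441 (0.20) and CG10075 (0.20). Genes chosen for nearness to Scr or abd-A share its highest library by the way they were chosen, so these peaks are no separate result. The genes nearest to Antp and Ubx varied by less than 1.2 log2 units over the libraries.

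Few other genes within the homeotic complexes had reads. Of 20 listed genes of the complexes that are not homeotic, 14 had no read in any library. These included zen, which acts in the extraembryonic membranes, its neighbour zen2, and the microRNA genes mir-10, mir-993, mir-iab-4 and mir-iab-8. Whether the libraries keep such short RNAs was not tested. ftz, a pair-rule gene of the embryo, had 1 read. Of the 20, 3 were tested and 0 passed in any comparison. Of all genes, 10.1% passed for delta-POZ against Halo-Trl, 0.656% for delta-Q against Halo-Trl and 4.6% for delta-Q against delta-POZ. With 3 genes tested, a count of 0 does not set them apart from other genes.

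Ama, which encodes a secreted protein of the immunoglobulin family, was the well-read exception, with 133 ± 10.0 CPM in delta-POZ, 123 ± 19.8 CPM in delta-Q and 112 ± 19.8 CPM in Halo-Trl libraries (SD, n = 3 each). Its log2 fold change was 0.25 for delta-POZ over Halo-Trl (adjusted p = 0.347) and 0.14 for delta-Q over Halo-Trl (adjusted p = 0.938). bcd, the maternal anterior determinant, had 130 reads and lncRNA:bxd, transcribed upstream of Ubx, had 74 reads over the 9 libraries. Neither passed the test, and their intervals spanned over 6 log2 units in each comparison.

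Among 6 homeotic cofactors and partners, tio alone passed. exd and hth encode the homeodomain partners that sharpen DNA binding by homeotic proteins. exd averaged 952 ± 53.1 CPM in delta-POZ, 913 ± 246 CPM in delta-Q and 950 ± 110 CPM in Halo-Trl libraries (SD, n = 3 each). hth averaged 1558 ± 84.1 CPM in delta-POZ, 1402 ± 226 CPM in delta-Q and 1500 ± 151 CPM in Halo-Trl libraries. tsh, a zinc finger gene of the trunk that acts beside the homeotic genes, averaged 201 ± 12.9 CPM in delta-POZ, 246 ± 32.1 CPM in delta-Q and 223 ± 8.78 CPM in Halo-Trl libraries, and its log2 fold change was -0.15 for delta-POZ over Halo-Trl (adjusted p = 0.456). Its paralog tio fell to 12.8 ± 0.86 CPM in delta-POZ and 30.1 ± 1.41 CPM in delta-Q, against 93.2 ± 8.46 CPM in Halo-Trl libraries (SD, n = 3 each; log2 fold changes -2.87 and -1.63, adjusted p = 1.22e-06 and 9.72e-05). Between the deletion lines, tio had a higher level in delta-Q (log2 fold change 1.24, adjusted p = 0.00039). The list thus had 1 called of 6 in each of the 3 comparisons, beside 10.1%, 0.656% and 4.6% of all genes.

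No listed gene known to respond to homeotic proteins passed in any comparison, beside 10.1%, 0.656% and 4.6% of all genes for delta-POZ against Halo-Trl, delta-Q against Halo-Trl and delta-Q against delta-POZ. At these shares, counts of 0 in lists this short do not set them apart from other genes. Of 12 genes known to respond to Ubx in haltere discs, all were tested, and the counts were 0 higher and 0 lower in each of the 3 comparisons. Their median log2 fold changes were 0.18 for delta-POZ over Halo-Trl, 0.10 for delta-Q over Halo-Trl and -0.06 for delta-Q over delta-POZ. Over all genes tested the medians were -0.01, 0.02 and 0.02. Single genes ranged from -0.19 to 3.81, -0.10 to 2.095 and -2.18 to 0.27 in the same order. The value of 3.81 was that of Cpr47Ee, which had 171 reads in all. At an unadjusted p under 0.05 in edgeR the counts were 1, 1 and 2 of 12, beside 26.0%, 7.82% and 20.3% of all genes. salm, which patterns the wing pouch and is repressed by Ubx in halteres, averaged 131 ± 8.14 CPM in delta-POZ, 142 ± 8.22 CPM in delta-Q and 118 ± 4.72 CPM in Halo-Trl libraries. vg, the wing selector, averaged 296 ± 29.5 CPM in delta-POZ, 339 ± 48.7 CPM in delta-Q and 312 ± 43.8 CPM in Halo-Trl libraries (SD, n = 3 each). Of 6 genes known to respond to Antp, among them Dll and ss of the distal leg and antenna, 0 passed in any comparison.

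Among the regulators, the Polycomb group had 0 higher and 1 lower of 19 tested in delta-POZ against Halo-Trl, beside 10.1% of all genes called, which is no excess. That gene was Caf1-55, a histone-binding subunit shared with other complexes (log2 fold change -0.43, adjusted p = 0.0473), and its call was kept under 4 of 16 alternatives. No Polycomb group gene passed in the comparisons of delta-Q. Of 14 Trithorax group genes, 0 passed in any comparison, beside the 10.1%, 0.656% and 4.6% of all genes given above, and their median log2 fold change was -0.11 for delta-POZ over Halo-Trl and 0.11 for delta-Q over Halo-Trl. Of 10 proteins that bind boundaries of the homeotic complexes, such as CTCF, pita and Cp190, 8 were tested and 0 passed in any comparison, beside the same shares. Of 6 genes encoding GAF and proteins that bind the same sites, Trl was higher in delta-POZ than in Halo-Trl (log2 fold change 0.54, adjusted p = 0.0234, called under 11 of 16 alternatives) and the other 5 did not pass.

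The contact maps add the loops of the Antennapedia complex. A loop is a pair of regions, here called anchors, that met in more contacts than their surroundings, and the count tables give the contacts between its anchors. The sources used here give no genome build for the loop lists. Coordinates are 1-based and come from the authors' lists. The loop labelled Scr joined chr3R:6846501-6851500 and chr3R:6890901-6895900, 44.4 kb apart. The first Antp loop joined chr3R:6930701-6935700 and chr3R:6966701-6971700, 36.0 kb apart, and the second joined chr3R:6997101-7002100 and chr3R:7034701-7039700, 37.6 kb apart. They followed one another without overlap, with 34.8 kb and 25.4 kb between them, over 193.2 kb in all. The median distance between the anchors of all 209 disc loops was 30.8 kb.

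No homeotic loop of the wing disc was called between genotypes. Contacts were scaled to libraries of equal effective size, which removes any change common to all loops. The Scr loop had 206 and 203 normalised contacts in delta-POZ, 195 and 225 in delta-Q, and 217 and 200 in Halo-Trl maps. With a mean of 208 it ranked 41 of 209 loops, above the median of 104. The groups overlapped, and both delta-POZ values lay between the Halo-Trl values.

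The first Antp loop had 70.9 and 65.3 normalised contacts in delta-POZ, 61.1 and 60.4 in delta-Q, and 62.9 and 69.1 in Halo-Trl maps. By its mean over all disc maps it ranked 172 of 209 loops. The second Antp loop had 63.5 and 83.5 in delta-POZ, 71.2 and 70.0 in delta-Q, and 76.3 and 80.4 in Halo-Trl maps. By its mean it ranked 151. Both lay below the median loop. In both, the 2 delta-Q values lay below the 2 Halo-Trl values, whereas the delta-POZ values overlapped those of Halo-Trl.

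By edgeR, 0 of the 3 loops were called for delta-POZ against Halo-Trl, where 4.31% of all loops were. The count was also 0 of 3 for delta-Q against Halo-Trl, where 0.0% were called, and 0 of 3 for delta-Q against delta-POZ, where 4.31% were. The groups did not overlap for 0, 2 and 1 of the 3 loops in these comparisons, beside 41.6%, 25.8% and 34.0% of all loops. At an unadjusted p under 0.05 the count was 0 of 3 in each, beside 10.5%, 1.91% and 12.4% of all loops.

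The log2 fold change of the Scr loop was -0.03 for delta-POZ over Halo-Trl (95% interval -0.35 to 0.29, adjusted p = 0.946) and 0.00 for delta-Q over Halo-Trl (-0.32 to 0.33, adjusted p = 0.99). The first Antp loop had 0.04 (-0.38 to 0.46, adjusted p = 0.946) and -0.12 (-0.56 to 0.32, adjusted p = 0.988) in these comparisons. The second Antp loop had -0.08 (-0.48 to 0.32, adjusted p = 0.935) and -0.15 (-0.57 to 0.27, adjusted p = 0.988). For delta-Q over delta-POZ the 3 loops had 0.03, -0.16 and -0.07 (adjusted p = 0.981, 0.953 and 0.954). The 9 loops called in delta-POZ against Halo-Trl had log2 fold changes of -1.55 to -0.55, all outside the 95% intervals of these 3 loops. The RNA and contact libraries are separate preparations, and the labels tie no map to the RNA library delta-POZ 2.

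**Figure D4:**
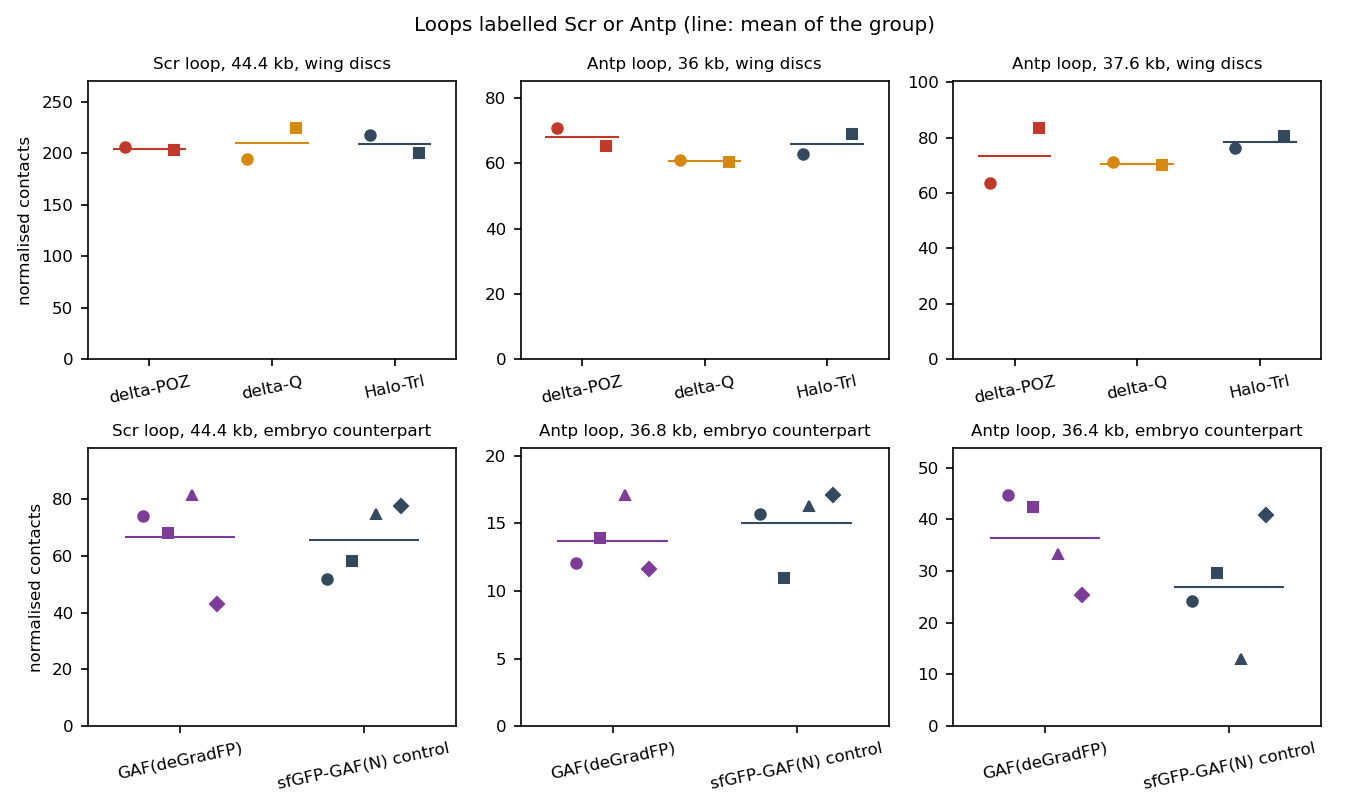
Normalised contacts (linear axes from 0, 1 panel per loop) of the loops labelled Scr or Antp, in 6 wing disc maps (top; delta-POZ, delta-Q and Halo-Trl from left to right) and of the embryo loops at the same places in 8 embryo maps (bottom; GAF(deGradFP) left of the sfGFP-GAF(N) control). Points are libraries, their shape gives the replicate number and lines are group means; the Scr loop has about 200.2 to 224.6 contacts in 5 of the 6 disc maps and 194.5 in the other.

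Embryos of 2 to 2.5 h, close to the onset of zygotic transcription, held a loop at each of these 3 places, though the authors' embryo list gives none of them a gene label. Both anchors overlapped those of the disc loop, as they did for 60 of the 209 disc loops. At the Scr place the centres of both anchors coincided with those of the disc loop (offsets 0 kb), and at the Antp places they lay within 1.4 kb. The embryo anchors were chr3R:6848201-6849800 with chr3R:6892601-6894200 at the Scr place, chr3R:6932601-6934200 with chr3R:6969401-6971000 at the first Antp place and chr3R:7000201-7001800 with chr3R:7036601-7038200 at the second. Contacts cannot be compared in number with those of discs, since anchors were 1600 bp long in embryos and 5000 bp in discs.

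The embryo loop at the Scr place ranked 11 of 186 by mean normalised contacts (66.2, against a median loop of 24.2). It had 74.1, 68.0, 81.7 and 43.2 normalised contacts in GAF(deGradFP) maps, against 52.0, 58.3, 74.8 and 77.5 in sfGFP-GAF(N) control maps. The groups overlapped over most of their range. The loop at the first Antp place was thin, with 14, 18, 18 and 11 contacts in GAF(deGradFP) maps and 13, 13, 5 and 21 in control maps before normalisation. The loop at the second Antp place had 44.8, 42.5, 33.3 and 25.3 normalised contacts in GAF(deGradFP) maps and 24.2, 29.6, 13.0 and 40.8 in control maps. Control 3, the shallowest map with 1715 contacts in all loops against 4512 to 7347 in the other maps, gave its lowest value from 4 contacts.

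By edgeR, 0 of these 3 loops were called for GAF(deGradFP) against the sfGFP-GAF(N) control, where 2.69% of all loops were, and 0 of 3 at an unadjusted p under 0.05, where 15.6% were. The log2 fold change was 0.05 at the Scr place (95% interval -0.40 to 0.49, adjusted p = 0.923) and -0.11 at the first Antp place (-0.77 to 0.55, adjusted p = 0.923). At the second Antp place it was 0.31 (-0.20 to 0.82, adjusted p = 0.558). The intervals were wider than in discs. A loss as large as that of the most reduced embryo loop (-2.01) lay outside all 3 intervals.

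**Figure D5:**
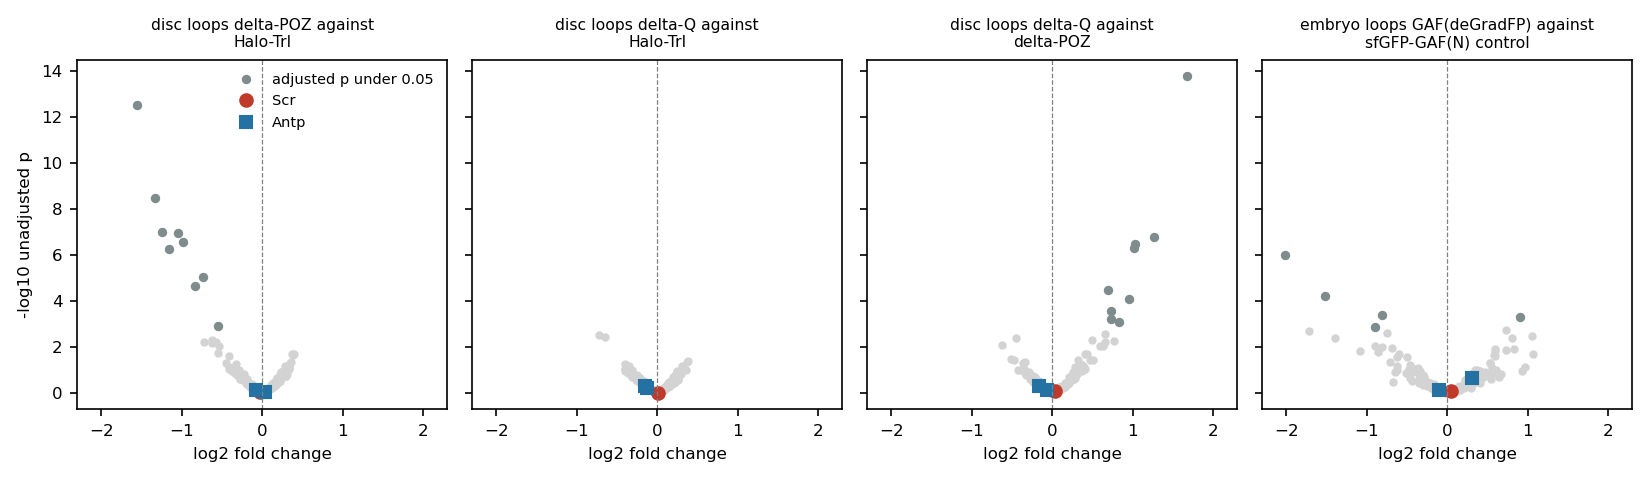
edgeR log2 fold change (x axis) against -log10 of the unadjusted p (y axis) of every loop in the 4 loop comparisons; light grey points are all loops, dark grey points those with an adjusted p under 0.05, red circles the Scr loop or its embryo counterpart and blue squares the Antp loops or theirs. The 3 homeotic loops lie near the base of each panel, within 0.31 log2 units of 0.

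The authors' deposited tables, made with DESeq2 per the submitters' processing notes, gave none of these genes and loops an adjusted p under 0.05. The authors' deposited RNA table carries no label. When delta-POZ was compared with Halo-Trl in DESeq2, 99.2% of 14598 fold changes came within 0.01 log2 units of that table. In the authors' deposited table Antp had a log2 fold change of -0.04 (adjusted p = 0.927), Ubx had -0.24 (adjusted p = 0.667) and lab had 0.26 (adjusted p = 0.902). In the same authors' deposited table Scr (3.31), Dfd (6.35) and abd-A (-4.20) were given a fold change but neither a p nor an adjusted p. DESeq2 reports no p for a gene that it marks as having an extreme count in 1 library. In the authors' deposited loop tables the adjusted p of the Scr and Antp loops was 0.987 or above in both disc comparisons.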

How the data were processed

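RNA-seq of 9 wing disc libraries and contact maps of 6 wing disc and 8 embryo libraries were used. The authors deposited raw counts of reads per gene (featureCounts, per the submitters' processing notes) and raw counts of contacts per loop (BWA and bedtools, per the same notes). The sources used here give no tool version, genome build, RNA aligner or strand setting. The authors also deposited their own comparisons, with a log2 fold change, its error, a raw and an adjusted p-value, and a mean and a test statistic that were treated as scores, per the file headers. Disc columns headed wt were assigned to Halo-Trl, the only genotype with no other column, and embryo columns headed as knock-outs to GAF(deGradFP). Of the embryo cells 6 were empty and counted as 0.

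The test was edgeR 4.0.16 in R 4.3.3 (glmQLFit and glmQLFTest, TMM normalization, genotype as the only term, all groups of an assay fitted together), after filterByExpr for genes and a minimum of 10 summed contacts for loops. P-values are two-sided, adjusted by the Benjamini-Hochberg method over all genes or loops tested and called under 0.05. A standard error is the log2 fold change over the root of its F statistic, without sign. Simulated counts with known changes were used to test the script. RNA replicates are biological triplicates per the labels; for the maps nothing says that replicates are separate collections, so their p-values measure the spread between these libraries, which may be technical. Homeotic genes were named whatever their values, and other lists by counts with up to 3 called members; further genes were named after their values were seen. The members and lists were chosen with earlier results of these data known. RefSeq (assembly Release 6 plus ISO1 MT) gave names and neighbours only, and dys, a listed name that matched no single gene, was left out. Alternatives were other normalizations and filters, DESeq2 1.42.0, 2 genotypes only, nuclear genes only, a replicate block, each replicate left out in turn and, added after seeing the data, Halo-Trl 1 and delta-Q 3 left out together.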

Additional observations from a re-analysis of the deposited data

How the results depend on the processing

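No homeotic gene or loop was called under any of 94 alternatives over the 7 comparisons, but Scr and abd-A could not be called by DESeq2, which gave them no adjusted p, and abd-A was not tested for delta-POZ against Halo-Trl with the 2 genotypes only. Over all genes, delta-POZ against Halo-Trl had 1050 calls, 1729 by DESeq2 and 411 to 1258 with 1 library left out. Against Halo-Trl, delta-Q had 68 calls, 246 by DESeq2, 25 without Halo-Trl 1 and delta-Q 3 together, and 21 to 89 with 1 library left out. Against delta-POZ, delta-Q had 477 calls, 1070 by DESeq2, 263 with the 2 genotypes only and 237 to 447 with 1 library left out. For loops, delta-Q against delta-POZ had 9 calls and 5 by DESeq2, and the embryo comparison had 5 calls, 3 by DESeq2 and 1 to 16 with 1 library left out.

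Of 27 single log2 fold changes of homeotic genes and loops, none of them called, 15 turned sign under some alternative, 11 of these only when 1 library was left out. With 1 library left out, delta-POZ over Halo-Trl ranged from -7.09 to 6.02 for abd-A, -0.52 to 3.86 for Scr, -0.23 to 0.59 for lab and -0.23 to 0.10 for Antp. For delta-Q over Halo-Trl the range was -1.28 to 9.52 for abd-A and -0.37 to 0.48 for lab, and for delta-Q over delta-POZ it was -0.61 to 0.19 for lab. Without Halo-Trl 1 and delta-Q 3 together, abd-A was 6.04 for delta-POZ and 9.27 for delta-Q over Halo-Trl, and lab was -0.11 for delta-Q over Halo-Trl. The Scr loop ranged from -0.10 to 0.0249 for delta-POZ over Halo-Trl, -0.10 to 0.0899 for delta-Q over Halo-Trl and -0.0718 to 0.13 for delta-Q over delta-POZ. For delta-Q over Halo-Trl it was -0.0035 with DESeq2 size factors, -0.0298 with total contacts and -0.0034 by DESeq2. The first Antp loop ranged from -0.0301 to 0.10 for delta-POZ over Halo-Trl. The second ranged from -0.30 to 0.0912 for delta-POZ over Halo-Trl and -0.24 to 0.15 for delta-Q over delta-POZ. In embryos, the loop at the Scr place ranged from -0.0709 to 0.20 and that at the first Antp place from -0.26 to 0.0069. Where a library was left out of a group of 2, the remaining one was assumed to vary like the other groups.

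A pairing of libraries by replicate number was neither shown nor excluded. Deviations of same-numbered libraries from their group means had correlations of -0.26 to 0.20. Of 6 RNA libraries a comparison, 0, 2 and 3 correlated best with their own number. In groups this small the deviations depend on one another, and in groups of 2 both numbers give the same value, so these figures cannot decide it. With a replicate block, delta-Q against Halo-Trl had 45 calls, the embryo comparison had 3, and abd-A was 1.78 for delta-Q over Halo-Trl. For delta-POZ over Halo-Trl it gave -0.77 for abd-A and 1.56 for Scr, and for delta-Q over delta-POZ 2.54 for abd-A and -3.20 for Scr. No homeotic call changed. Low counts limited lab, pb and the embryo loops, and the spread between libraries of 1 genotype limited Scr, Dfd and abd-A.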

Other observations

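Within the Antennapedia complex, taken as the 45 RefSeq genes from lab to Antp, 20 genes had no read and 11 were tested. The bithorax complex, taken as 17 RefSeq genes from Ubx to Abd-B of which 15 were in the table, had 10 genes with no read and 3 tested. This set of neighbours was drawn up after the data were seen. Of the 14 tested, 1 was called for delta-POZ against Halo-Trl, beside 10.1% of all genes, so the complexes held no excess of calls. It was lncRNA:CR33938, which lies between lab and pb in the order of RefSeq genes. lncRNA:CR33938 had 20.4, 45.1 and 14.4 CPM in delta-POZ libraries, 7.82, 10.2 and 4.93 CPM in delta-Q libraries, and 3.59, 3.26 and 3.43 CPM in Halo-Trl libraries. Every library of both deletion lines lay above every Halo-Trl library, with the highest value in delta-POZ 2. The edgeR log2 fold change of lncRNA:CR33938 was 2.96 for delta-POZ over Halo-Trl (SE 0.42, adjusted p = 0.00245), called under 16 of 16 alternatives with values of 2.35 to 3.25. For delta-Q over Halo-Trl it was 1.16 (SE 0.40, adjusted p = 0.406), called under 0 of 16. For delta-Q over delta-POZ it was -1.80 (SE 0.40, adjusted p = 0.0349), called under 7 of 16.

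The other tested lncRNA genes of the Antennapedia complex did not pass. lncRNA:CR44932, which lies between ftz and Antp, had 5.54, 6.17 and 5.44 CPM in delta-POZ, 5.17, 3.79 and 6.01 CPM in delta-Q, and 3.94, 4.64 and 4.53 CPM in Halo-Trl libraries. lncRNA:CR45593, between bcd and Ama, had 0.145, 2.68 and 2.31 CPM in delta-POZ, 0.198, 0.307 and 0.964 CPM in delta-Q, and 0.697, 0.208 and 0.451 CPM in Halo-Trl libraries. lncRNA:bxd, in the bithorax complex, had 0.203, 0.0665 and 0 CPM in delta-POZ, 0, 0.534 and 0.327 CPM in delta-Q, and 0, 0.0389 and 0 CPM in Halo-Trl libraries.

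Some markers of other cell types were called. Blood cell markers had 2 of 5 genes higher in delta-POZ than in Halo-Trl, where 10.1% of all genes were called: NimC1, a phagocytosis receptor of plasmatocytes (54.6 ± 42.3 CPM in delta-POZ and 6.71 ± 4.10 CPM in Halo-Trl, adjusted p = 0.015) and He (21.9 ± 13.0 CPM in delta-POZ and 3.35 ± 0.53 CPM in Halo-Trl, adjusted p = 0.0128; SD, n = 3 each). Both calls were lost when Halo-Trl 2 or Halo-Trl 3 was left out (highest adjusted p 0.0704 and 0.0665). That of He was also lost without Halo-Trl 1 and delta-Q 3 together. The other blood cell markers, Hml, srp and Pxn, were not called. As a sum, the blood cell markers had 146 to 580 CPM in delta-POZ, 216 to 684 CPM in delta-Q and 112 to 279 CPM in Halo-Trl libraries. These ranges overlapped, and the highest sum was in delta-Q 2. Adult muscle precursor markers summed to 346 to 388 CPM in delta-POZ, 254 to 301 CPM in delta-Q and 245 to 297 CPM in Halo-Trl libraries. Of these markers 1 of 5, zfh1, was called higher in delta-POZ than in Halo-Trl (edgeR adjusted p = 0.0209). The zfh1 call was lost without delta-POZ 2, delta-POZ 3 or any 1 Halo-Trl library, and without Halo-Trl 1 and delta-Q 3 together (highest adjusted p 0.0854). Tracheal markers had 0 of 3 called in any comparison. Beside them, 10.1% of all genes were called for delta-POZ against Halo-Trl, 0.656% for delta-Q against Halo-Trl and 4.6% for delta-Q against delta-POZ. Of 10 wing disc markers, ara was lower in delta-POZ than in Halo-Trl (log2 fold change -0.39, adjusted p = 0.0319) and was called under 7 of 16 alternatives. For delta-Q over delta-POZ, edgeR also called ara (log2 fold change 0.51, adjusted p = 0.0189) and zfh1 (-0.68, adjusted p = 0.0489). These calls were kept under 12 of 16 alternatives for ara and 5 of 16 for zfh1.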
